A study of Homo sapiens with 6 samples.

Results

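Hyaluronan synthesis, binding and breakdown were followed through 7 genes: the synthases HAS1, HAS2 and HAS3, the receptor CD44, the proteoglycan VCAN (versican), the hyaluronan-modifying protein TNFAIP6 (TSG-6) and the hyaluronidase HYAL2. They were taken by symbol from an expression table of 57232 genes. RNA was sequenced from IMR90 cells, a line of human fetal lung fibroblasts, infected on day 0 with ARID1B cDNA (3 libraries) or with an empty vector (3 libraries). ARID1B is a DNA-binding subunit of the SWI/SNF chromatin remodeling complexes. Cells of both groups were at passage 13, grew in DMEM with fetal bovine serum, went through puromycin selection until day 4 and were collected on day 6. The cDNA was delivered by a vector into a single cell line. The study calls the libraries of a group biological replicates, and the labels do not say whether they came from separate cultures, so that p-values measure the spread between these libraries.

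Hyaluronan is a long sugar chain without sulfate groups that HAS enzymes build at the plasma membrane from UDP-glucuronic acid and UDP-N-acetylglucosamine and push into the matrix. There it is bound by CD44 on the cell surface and by versican, a large chondroitin sulfate proteoglycan, and TSG-6 links protein chains to it. HYAL2 at the cell surface cuts long chains into shorter ones, and the matrix of hyaluronan and versican that fibroblasts lay down in the lung is known for its part in tissue swelling and repair.

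Values are FPKM, the fragments of a gene divided by its length in kilobases and by the size of the library. The steps of the low values gave totals of 70022493 to 91924514 reads or fragments per ARID1B library and 63386813 to 90548577 per vector library. ARID1B itself was at 32.5, 21.0 and 28.3 FPKM in ARID1B replicates 1, 2 and 3, against 2.29, 1.31 and 2.05 FPKM in vector replicates 1, 2 and 3. All 9 lung fibroblast markers listed reached a mean of 1 FPKM, while all 8 blood markers stayed below 0.1 FPKM in every library. Of the other markers, 3 of 9 epithelial and 1 of 6 endothelial genes reached 1 FPKM. PECAM1, listed as endothelial, was not found under that symbol and has no value here. Vector replicate 2 stood apart, at -48.5 on a first principal component holding 63.8% of the variance, where the other 5 libraries lay at -3.63 or above. Replicate 3 of each group lay close to a mixture of replicates 1 and 2, with a weight on replicate 1 of 70.4% in ARID1B cells and 82.2% in vector cells. For the 6 members with reads, replicate 3 lay between replicates 1 and 2 in 11 of 12 cases, beside 69.2% of all genes tested in ARID1B cells and 85% in vector cells. The standard deviations and p-values given here count it as a separate sample.

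Of the 7 genes, 6 had reads and 5 reached the mean of 1 FPKM needed for the test, which was run with limma on log2(FPKM + 1) over 10416 genes. CD44 was higher in every ARID1B library than in any vector library, while the other 4 genes tested overlapped between the groups. Groups that did not overlap were found in 20.5% of all genes tested. None of the 5 passed the threshold of 0.05 for the adjusted p, with 0 higher and 0 lower, against 0.0288% of all tested genes called higher and 0.0% called lower. At an unadjusted p below 0.05, 1 of the 5 passed (CD44), against 4.64% of all tested genes higher, 5.94% lower and 10.6% in either direction. Limma's voom on the recovered reads also called 0 of the 5 after adjustment and 1 before. The median log2 change of all genes tested was -0.02.

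**Figure D1:**
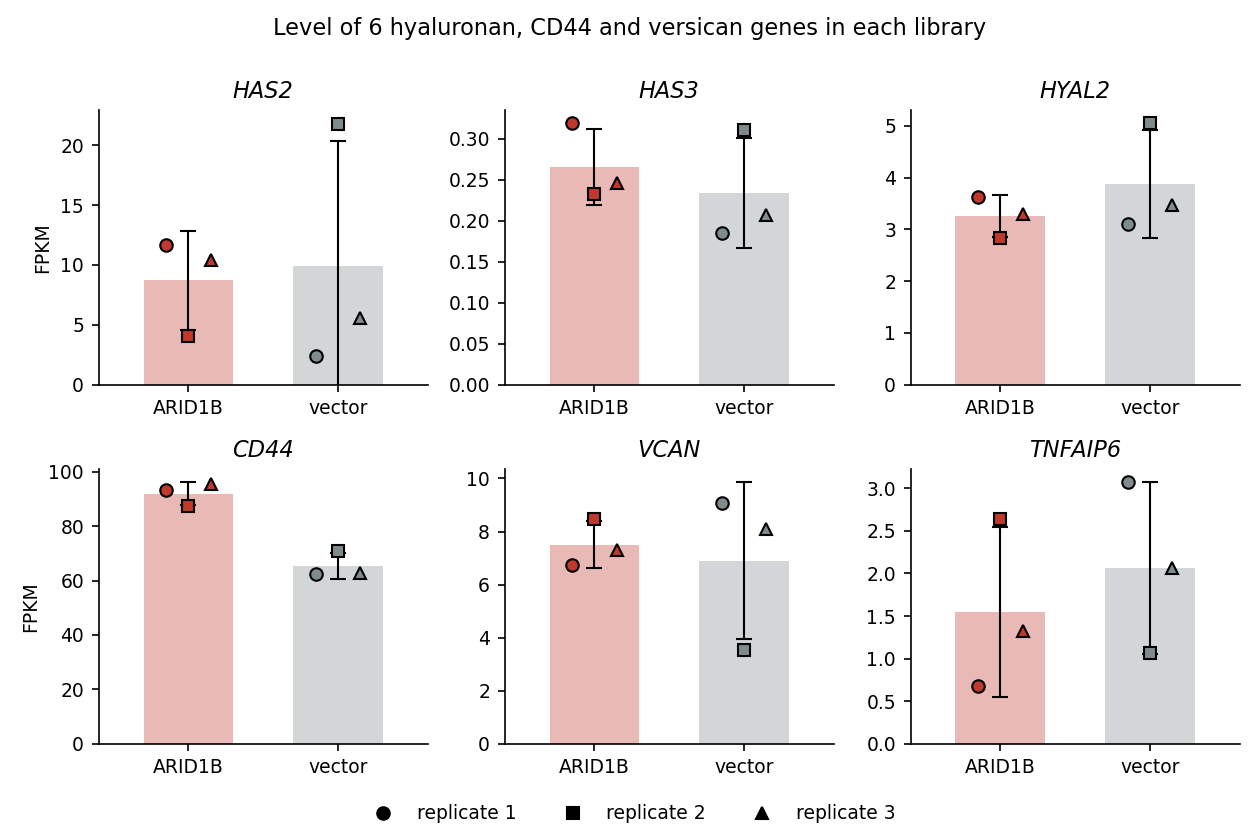
FPKM on a linear axis from 0 in each library for the 6 genes with reads, ARID1B libraries on the left and vector libraries on the right, with group means and standard deviations (n = 3). For CD44 the ARID1B libraries, at 87.4 to 95.4 FPKM, all lie above the vector libraries, at 62.4 to 70.8 FPKM. For HAS2 the vector libraries spread from 2.41 to 21.8 FPKM, and the lower bar is cut off at 0.

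CD44 is the main cell surface receptor for hyaluronan. It was at 93.2, 87.4 and 95.4 FPKM in ARID1B replicates 1, 2 and 3, against 62.4, 70.8 and 62.9 FPKM in vector replicates 1, 2 and 3. The groups did not overlap, and the lowest ARID1B library still lay above vector replicate 2, the highest of its group. Across all genes tested, 9.44% were likewise higher in every ARID1B library. The means were 92.0 ± 4.13 FPKM in ARID1B cells and 65.3 ± 4.70 FPKM in vector cells (SD, n = 3 each), a ratio of 1.41. The exact permutation test gave a two-sided p of 0.1, and no smaller p can be reached with 3 libraries in each group. The log2 change of CD44 was 0.49 (SE 0.114, 95% interval 0.21 to 0.76), with a limma p of 0.00456 before adjustment and 0.301 after it. These values count replicate 3 as a separate library in both groups. With both libraries numbered 3 left out, the log2 change was 0.44. The limma p was then 0.168 before adjustment and 0.999 after it. Without vector replicate 2 its log2 change was 0.55 and the limma adjusted p 0.0426, past the threshold. The fit without that library called 1.2% of tested genes higher and 1.91% lower. Its vector group was replicates 1 and 3, and replicate 3 lay close to a mixture weighted 82.2% on replicate 1. The spread within that group, and with it the adjusted p, may thus be too small. The other 4 genes did not pass in that fit. CD44 rested on 85311 to 187557 reads per library, and its spread within groups, 0.0845 on the log2 scale, was at the 12.3 percentile of all genes tested. Of 5 smooth muscle markers 3 reached a mean of 1 FPKM, and their summed FPKM was 129, 126 and 122 in ARID1B replicates 1, 2 and 3, against 74.4, 129 and 82.3 in vector replicates 1, 2 and 3. Vector replicate 2 reached the ARID1B level in this sum but not in CD44. ACTG2 made up most of the sum and, like CD44, was higher in every ARID1B library than in any vector library. It was at 104 to 111 FPKM in ARID1B libraries, against 62.4 to 99.9 FPKM in vector libraries. CNN1 and SMTN were instead highest in vector replicate 2. MYH11 was near 0 in every library, and the part of these markers in the CD44 difference was not tested.

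HAS2 is the synthase that made up most of the HAS transcripts in these cells. It was at 11.7, 4.02 and 10.4 FPKM in ARID1B replicates 1, 2 and 3, against 2.41, 21.8 and 5.58 FPKM in vector replicates 1, 2 and 3. The highest and the lowest library were both vector libraries, and all 3 ARID1B libraries fell between them. The means were 8.71 ± 4.11 FPKM in ARID1B cells and 9.94 ± 10.4 FPKM in vector cells (SD, n = 3 each), a ratio of 0.876. On the log2 scale the change was 0.17 (SE 0.727, 95% interval -1.59 to 1.92), opposite in sign to the ratio of the means, with a limma adjusted p of 0.941. As a fold on FPKM + 1, this interval runs from 0.333 to 3.79. The exact permutation test gave p = 1.0, two-sided. The sign of the log2 change turned without ARID1B replicate 1 (-0.08), without ARID1B replicate 3 (-0.00) and without vector replicate 1 (-0.45), while it was 0.92 without vector replicate 2. It also turned under a correction for GC content and length (-0.08) and with both libraries numbered 3 left out (-0.14).

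The spread of HAS2 between libraries of the same group was larger than that of nearly every other gene. Its within-group SD of 1.11 on the log2 scale was at the 99.7 percentile of the genes tested, whose median was 0.204. Vector replicate 2 held 9.05 times the level of vector replicate 1 (95% counting interval 8.42 to 9.73), and ARID1B replicate 2 held 0.343 times that of ARID1B replicate 1 (0.321 to 0.366). These intervals cover counting error only, as reads without molecular identifiers are not independent molecules. The summed FPKM of 4 genes of dividing cells was 60.3, 32.2 and 55.6 in ARID1B replicates 1, 2 and 3, against 23.2, 61.2 and 28.8 in vector replicates 1, 2 and 3. Vector replicate 2 and ARID1B replicates 1 and 3 were the highest in HAS2 and in this sum alike, and its part in the HAS2 levels was not tested. The summed epithelial markers were likewise highest in vector replicate 2, at 25.2 FPKM. They were at 20.7, 13.3 and 18.5 FPKM in ARID1B replicates 1, 2 and 3, and at most 13.6 FPKM in vector replicates 1 and 3. KRT19 (14.3 FPKM) and CLDN4 (1.29 FPKM) were highest in vector replicate 2. KRT18 was highest in ARID1B replicate 1 (12.4 FPKM, against 8.46 FPKM in vector replicate 2), and KRT8 was lowest in vector replicate 2 (0.904 FPKM). KRT5, SFTPC and SCGB1A1 had 0 reads and CDH1 was near 0 in all 6. The part of these markers in the HAS2 levels was not tested.

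HAS3, another synthase, was at 0.319, 0.233 and 0.246 FPKM in ARID1B replicates 1, 2 and 3, against 0.185, 0.311 and 0.207 FPKM in vector replicates 1, 2 and 3. The groups overlapped, and with 88 to 189 reads per library and a mean below 1 FPKM the gene was left out of the main test. The exact permutation test gave p = 0.5, two-sided. HAS1, the remaining synthase, had 0 reads in each of the 6 libraries, which allows up to 3 reads per library, or 0.0146 to 0.0211 FPKM over its merged exons.

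Levels can be set between genes only after a change of length. The deposited values divide CD44 by 21395 bases, whereas its exons, with overlapping ones merged, cover 10004 bases. For HYAL2 the deposited divisor of 11340 bases is longer than the whole gene, which spans 5117 bases, and for HAS2 it equals the merged 4190 bases. This divisor is the same in all libraries, so it moves the order of genes and leaves ratios between libraries of 1 gene as they are. Per merged exon length, the mean in ARID1B cells was 197 ± 8.84 FPKM for CD44, 14.3 ± 1.67 for VCAN, 8.71 ± 4.11 for HAS2, 8.13 ± 0.996 for HYAL2, 1.66 ± 1.07 for TNFAIP6 and 0.338 ± 0.0588 for HAS3 (SD, n = 3). In vector cells it was 140 ± 10.1 FPKM for CD44, 13.1 ± 5.6 for VCAN, 9.94 ± 10.4 for HAS2, 9.67 ± 2.58 for HYAL2, 2.21 ± 1.08 for TNFAIP6 and 0.297 ± 0.0854 for HAS3 (SD, n = 3). VCAN, HAS2 and HYAL2 were neighbours that overlapped in vector libraries, and HAS2 and HYAL2 also overlapped in ARID1B libraries. On the same scale HAS2 made up 96.7, 93.1 and 97.1% of summed HAS levels in ARID1B replicates 1, 2 and 3, against 91.1, 98.2 and 95.5% in vector replicates 1, 2 and 3. HAS2 was thus the major synthase transcript in each library, whether its own level was high or low.

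VCAN encodes versican. It was at 6.75, 8.48 and 7.31 deposited FPKM in ARID1B replicates 1, 2 and 3, against 9.07, 3.54 and 8.08 FPKM in vector replicates 1, 2 and 3. Vector replicate 2 was the lowest of the 6 and vector replicates 1 and 3 were the highest and the third highest, so the groups overlapped. The means were 7.51 ± 0.882 FPKM in ARID1B cells and 6.90 ± 2.95 FPKM in vector cells (SD, n = 3 each). The log2 change was 0.18 (SE 0.308, 95% interval -0.56 to 0.93) with a limma adjusted p of 0.829, and the exact permutation test gave p = 0.9, two-sided. Without vector replicate 2 the log2 change turned to -0.17, and it was 0.40 without vector replicate 1, 0.33 without vector replicate 3, 0.10 without ARID1B replicate 2 and 0.04 under the correction for GC content and length. Since CD44 and VCAN parted in vector replicate 2, the ratio of CD44 to VCAN per merged exon length was 15.6, 11.6 and 14.7 in ARID1B replicates 1, 2 and 3, against 7.74, 22.5 and 8.76 in vector replicates 1, 2 and 3.

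TNFAIP6 encodes TSG-6, a secreted protein that moves heavy chains of inter-alpha-inhibitor onto hyaluronan. It was at 0.674, 2.64 and 1.33 FPKM in ARID1B replicates 1, 2 and 3, against 3.07, 1.06 and 2.06 FPKM in vector replicates 1, 2 and 3. The lowest library was ARID1B replicate 1 and the highest vector replicate 1, and the groups overlapped. The means were 1.55 ± 0.999 FPKM in ARID1B cells and 2.06 ± 1.01 FPKM in vector cells (SD, n = 3 each). The log2 change was -0.28 (SE 0.352, 95% interval -1.13 to 0.57) with a limma adjusted p of 0.785, and the exact permutation test gave p = 0.6, two-sided. The log2 change was -0.02 without ARID1B replicate 1 and -0.05 without vector replicate 1, against -0.58 without ARID1B replicate 2 and -0.54 without vector replicate 2. TNFAIP6 rested on 80 to 419 reads per library. Within groups, ARID1B replicate 2 held 3.91 times the level of ARID1B replicate 1 (95% counting interval 3.05 to 5.05), and vector replicate 2 held 0.344 times that of vector replicate 1 (0.285 to 0.413).

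HYAL2 encodes a hyaluronidase held at the cell surface by a lipid anchor. It was at 3.63, 2.84 and 3.30 FPKM in ARID1B replicates 1, 2 and 3, against 3.11, 5.05 and 3.47 FPKM in vector replicates 1, 2 and 3. Vector replicate 2 was the highest, and the other vector libraries lay within the ARID1B range. The means were 3.26 ± 0.399 FPKM in ARID1B cells and 3.88 ± 1.04 FPKM in vector cells (SD, n = 3 each). The log2 change was -0.18 (SE 0.172, 95% interval -0.60 to 0.24) with a limma adjusted p of 0.735, and the exact permutation test gave p = 0.5, two-sided. The correction for GC content and length turned the log2 change to 0.05. It was -0.01 without vector replicate 2, -0.11 without ARID1B replicate 2 and -0.29 without vector replicate 1. Part of the HYAL2 exons, 509 bases, is shared on the same strand with TUSC2, which was at 5.41 to 6.64 FPKM in ARID1B cells and 4.53 to 9.45 FPKM in vector cells, and reads of the shared bases cannot be assigned to 1 of them. HAS2, HAS3, CD44 and VCAN share 84 to 453 exon bases with genes on the opposite strand, and whether counting used the strand is not given in the sources used here.

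**Figure D2:**
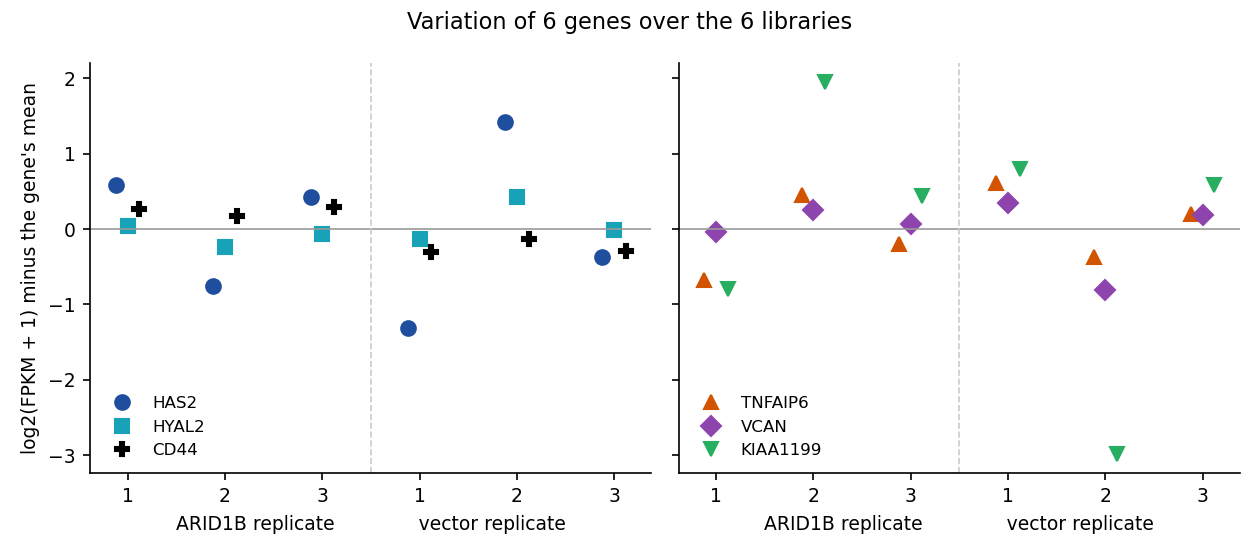
Log2 level of each gene in each library relative to its mean over the 6 libraries, ARID1B libraries to the left of vector libraries. HAS2 peaks in vector replicate 2 and is lowest in vector replicate 1, while VCAN and TNFAIP6 are highest in vector replicate 1.

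The order of the libraries set HAS2 apart from VCAN and TNFAIP6. HAS2 ran from vector replicate 2, the highest, through ARID1B replicates 1 and 3, vector replicate 3 and ARID1B replicate 2 to vector replicate 1. VCAN ran in the opposite order, from vector replicate 1 down to vector replicate 2, and TNFAIP6 differed from VCAN only in that its last places were exchanged, with ARID1B replicate 1 the lowest. KIAA1199 (also called CEMIP), which binds hyaluronan and is needed for its breakdown in skin fibroblasts, was at 7.95, 59.5 and 20.2 FPKM in ARID1B replicates 1, 2 and 3, against 26.2, 0.965 and 22.4 FPKM in vector replicates 1, 2 and 3. It too was high where HAS2 was low, and its log2 change of 1.07 had a 95% interval of -1.75 to 3.88 and a limma adjusted p of 0.759. The summed fibroblast markers were highest in the same libraries as VCAN. They were at 1910, 2670 and 2070 FPKM in ARID1B replicates 1, 2 and 3, against 2630, 1950 and 2560 FPKM in vector replicates 1, 2 and 3. Collagens such as COL1A1 made up much of this sum and were lowest in vector replicate 2. VIM (846 FPKM) and THY1 (73.2 FPKM) were instead highest in vector replicate 2. The summed endothelial markers, nearly all of them TEK, followed the order of VCAN, at 1.83 to 3.64 FPKM in ARID1B libraries against 0.903 to 3.68 FPKM in vector libraries, with CDH5 at 0 in all 6, and the part of either list in the VCAN and TNFAIP6 levels was not tested. The orders are over 6 libraries of which 1 stood apart, and they are given as a description.

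By the root mean square difference of log2 values over the 6 libraries, after each gene was set to its own mean, the genes nearest to HAS2 were MMP1 (0.10), an interstitial collagenase, UBE2C (0.18), a ubiquitin-conjugating enzyme of mitosis, and SERPINB2 (0.20), an inhibitor of plasminogen activators. HAS2 itself deviated from its mean by 0.91 on this measure. The nearest to CD44 were MPZL1, CALU and EFNB2, at 0.039 to 0.043, and the nearest to VCAN were FOXO3, ELF1 and CERS6, at 0.020 to 0.032. DNM3OS, HSPA2 and LRRC17 were nearest to TNFAIP6, at 0.096 to 0.12, and HDGF, YBX1 and SDHA were nearest to HYAL2, each at 0.018.

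The sequences before the start sites of CD44, VCAN and TNFAIP6 are shown because CD44 was the member whose groups did not overlap and because VCAN and TNFAIP6 ordered the libraries nearly alike. They are from RefSeq on GRCh38.p14, reach from 250 bases before to 50 bases after the start site, and are given 5′ to 3′ on the strand of the gene. Capitals mark the letters TGAGTCA, a match to the AP-1 motif TGANTCA.
CD44, chr11:35138921-35139220, + strand: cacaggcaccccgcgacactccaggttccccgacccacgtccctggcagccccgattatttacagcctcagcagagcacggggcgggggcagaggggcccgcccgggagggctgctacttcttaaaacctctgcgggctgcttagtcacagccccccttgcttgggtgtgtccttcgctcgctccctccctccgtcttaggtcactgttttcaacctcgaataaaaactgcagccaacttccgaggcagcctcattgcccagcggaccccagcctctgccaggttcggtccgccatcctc
VCAN, chr5:83471494-83471793, + strand: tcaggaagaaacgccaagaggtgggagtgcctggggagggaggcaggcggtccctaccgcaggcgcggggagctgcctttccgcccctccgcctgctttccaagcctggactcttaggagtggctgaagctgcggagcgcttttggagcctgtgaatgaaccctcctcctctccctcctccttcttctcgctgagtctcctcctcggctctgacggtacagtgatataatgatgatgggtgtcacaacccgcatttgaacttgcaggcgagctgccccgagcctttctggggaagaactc
TNFAIP6, chr2:151357342-151357641, + strand: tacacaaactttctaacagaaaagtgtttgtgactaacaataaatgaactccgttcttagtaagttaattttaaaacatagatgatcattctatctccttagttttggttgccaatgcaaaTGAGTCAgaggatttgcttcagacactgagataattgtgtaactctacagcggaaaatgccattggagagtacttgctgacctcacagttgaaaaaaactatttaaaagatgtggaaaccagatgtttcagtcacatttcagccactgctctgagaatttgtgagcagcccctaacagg

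A RefSeq promoter was matched for 6 of the 7 genes. The search did not cover HAS2, so its promoter was not examined for these motifs. Both strands were searched for the AP-1 motif TGANTCA, the NF-kB motif, the CRE TGACGTCA and the TATA motif TATAAA, which 7.71%, 0.558%, 1.85% and 11.5% of 35116 promoters of this length held. TNFAIP6 held the AP-1 letters, from -129 to -123 relative to the start site, and HAS1 held the CRE letters, from -69 to -62. CD44, VCAN, HAS3 and HYAL2 held none of the 4 in this window.

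Around the 7 genes, 80 genes of the pathway were listed, of which 46 were tested. None passed the threshold, with 0 higher and 0 lower by limma, 8 at an unadjusted p below 0.05, and 0 by voom after adjustment, beside 0.0288% of all genes tested past the threshold and 10.6% at an unadjusted p below 0.05. Their median log2 change was 0.12, with 28 positive and 18 negative, beside a median of -0.02 and 47.6% positive over all genes tested. Of the 46, 7 were higher and 3 lower in every ARID1B library than in any vector library. Over all genes tested, 9.44% were higher and 11.1% lower in this way. Without vector replicate 2, 2 passed as higher and 1 as lower: UAP1, the last enzyme of UDP-N-acetylglucosamine synthesis (log2 change 0.74, limma adjusted p = 0.0481), ADAMTS5, a protease that cuts versican (log2 change 0.68, adjusted p = 0.0426), and ADAMTS15 of the same family (log2 change -0.93, adjusted p = 0.0407). That fit called 1.2% of all genes tested higher and 1.91% lower. Its vector group was replicates 1 and 3, where replicate 3 lay close to a mixture weighted 82.2% on replicate 1, so its adjusted p-values may be too small. With all libraries the log2 change was 0.40 for UAP1 (limma adjusted p = 0.67) and -0.18 for ADAMTS15 (0.923).

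**Figure D3:**
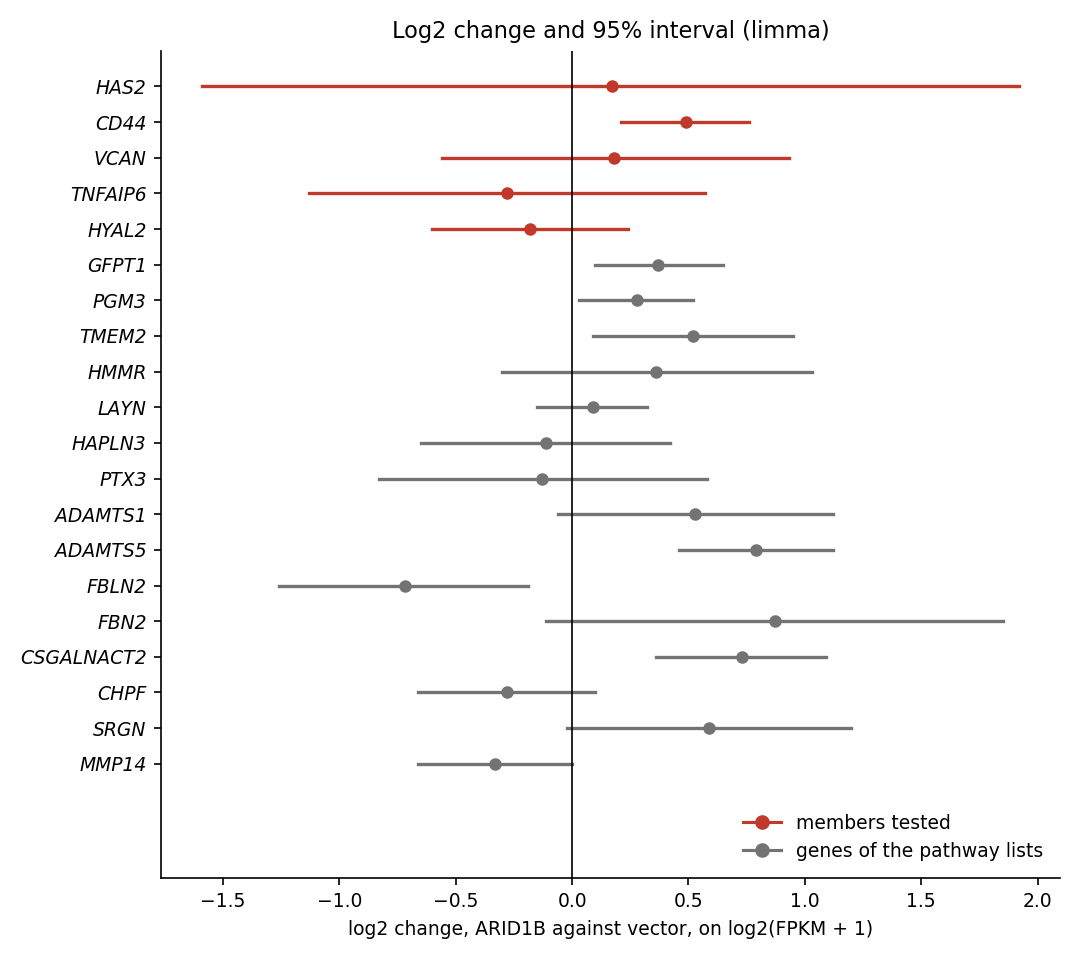
Log2 change of FPKM + 1, ARID1B over vector, with its 95% interval from limma, for the 5 members tested in red and, in gray, for up to 2 tested genes with the smallest p from each pathway list. The interval of CD44 runs from 0.21 to 0.76, and those of HAS2, VCAN, TNFAIP6 and HYAL2 include 0.

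Upstream of HAS2, all 7 genes that supply the UDP-sugars were tested and none passed, with 5 positive, 2 negative and a median log2 change of 0.17. GFPT1, the entry enzyme of the hexosamine pathway, was at 19.5, 21.1 and 21.8 FPKM in ARID1B replicates 1, 2 and 3, against 17.3, 14.4 and 15.9 FPKM in vector replicates 1, 2 and 3. Its groups did not overlap, as was so for 20.5% of all genes tested, with a log2 change of 0.37 and a limma adjusted p of 0.366. PGM3, a later enzyme of the same route, had a log2 change of 0.28 (limma adjusted p = 0.423). Both moved to a log2 change of 0.16 when GC content and length were corrected for.

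Beside CD44, 2 of 7 other hyaluronan receptors were tested, with log2 changes of 0.36 for HMMR and 0.09 for LAYN, and neither passed. HMMR ran from 0.19 without vector replicate 1 to 0.62 without vector replicate 2, with 0.56 without ARID1B replicate 2, and LAYN moved to 0.05 without ARID1B replicate 2. Among 8 tested partners and proteases of CD44, 6 were positive and 2 negative, with SRGN, a proteoglycan that CD44 binds, at 0.59 (limma adjusted p = 0.484) and MMP14, which cleaves CD44, at -0.33 (adjusted p = 0.469). SRGN moved to 0.89 without ARID1B replicate 2, and MMP14 to -0.16 under the correction for GC content and length. LYVE1, STAB1, STAB2 and TLR4 had at most 12 reads in any library. LAYN was the next receptor in level after CD44. Per merged exon length CD44 was 7.66, 6.66 and 8.01 times LAYN in ARID1B replicates 1, 2 and 3, against 5.19, 6.27 and 5.46 times in vector replicates 1, 2 and 3.

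Among genes acting on versican, 13 of 18 chondroitin sulfate enzymes were tested, with 7 positive, 6 negative and a median log2 change of 0.03. CSGALNACT2, which starts the chondroitin chain, was at 12.1, 17.1 and 14.4 FPKM in ARID1B replicates 1, 2 and 3, against 9.02, 7.65 and 8.31 FPKM in vector replicates 1, 2 and 3. Its groups did not overlap, as was so for 20.5% of all genes tested, the log2 change was 0.73 and the limma adjusted p 0.285. ADAMTS5 was at 1.66, 2.21 and 2.07 FPKM in ARID1B replicates 1, 2 and 3, against 0.943, 0.476 and 0.763 FPKM in vector replicates 1, 2 and 3, with a log2 change of 0.79 and a limma adjusted p of 0.232. With a pseudocount of 0.1 its log2 change was 1.36, and it was 1.5 with voom. FBLN2 (fibulin-2), a matrix protein that versican binds, did not overlap and was the lower in ARID1B cells (2.74 to 4.94 FPKM, against 5.02 to 7.44 FPKM in vector cells), with a log2 change of -0.72 and a limma adjusted p of 0.363. The other genes named from these lists had log2 changes of 0.53 for ADAMTS1 (limma adjusted p = 0.509), 0.87 for FBN2 (0.517) and -0.28 for CHPF (0.59). Without vector replicate 2 the log2 change was 0.44 for FBN2 and -0.14 for CHPF, and without ARID1B replicate 2 it was 0.32 for ADAMTS1. The correction for GC content and length moved CHPF to -0.06, CSGALNACT2 to 0.49, ADAMTS5 to 0.58 and FBLN2 to -0.5. HAPLN3, the only tested gene of 7 other hyalectans and link proteins, had a log2 change of -0.11 (limma adjusted p = 0.854), which turned to 0.11 without vector replicate 2.

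With TNFAIP6, 1 of 7 genes for heavy chains and PTX3 was tested. PTX3 (pentraxin 3), which binds TSG-6 in the matrix, was at 73.5, 95.3 and 79.6 FPKM in ARID1B replicates 1, 2 and 3, against 122, 57.5 and 104 FPKM in vector replicates 1, 2 and 3. As with VCAN, the highest and the lowest library were vector replicates 1 and 2, and its log2 change was -0.13 with a limma adjusted p of 0.88, turning to 0.09 without vector replicate 1.

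Beside HYAL2, 6 of 9 genes of hyaluronan breakdown were tested, with 3 positive and 3 negative. TMEM2, a cell surface protein described as a hyaluronidase in mice, was at 6.76, 5.10 and 6.46 FPKM in ARID1B replicates 1, 2 and 3, against 3.32, 5.17 and 3.50 FPKM in vector replicates 1, 2 and 3. Vector replicate 2 lay just above the lowest ARID1B library, so the groups overlapped, with a log2 change of 0.52 and a limma adjusted p of 0.401. Per merged exon length HYAL2 made up 80.2, 81.6 and 79.8% of the sum of HYAL1, HYAL2 and HYAL3 in ARID1B replicates 1, 2 and 3, against 78.6, 81.7 and 79.3% in vector replicates 1, 2 and 3. The share thus kept to 78.6 to 81.7% over the 6 libraries.

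**Figure D4:**
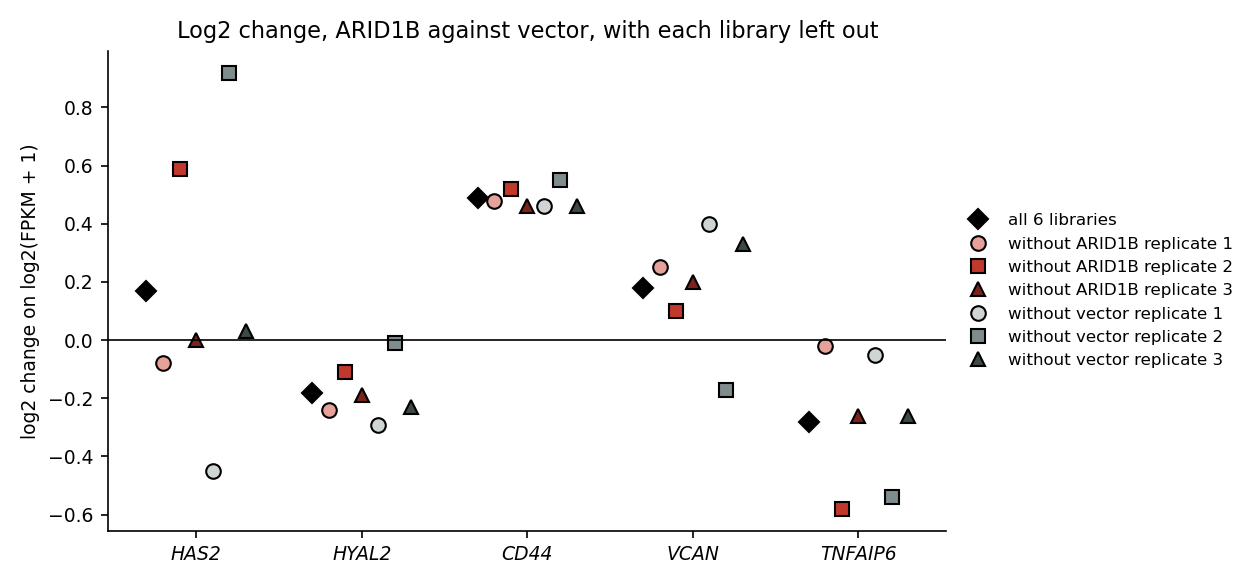
Log2 change of FPKM + 1, ARID1B over vector, for the 5 members tested, with all libraries and with each library left out in turn. CD44 stays between 0.46 and 0.55, whereas HAS2 runs from -0.45 to 0.92 and VCAN from -0.17 to 0.40.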

How the data were processed

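A stranded mRNA kit was used for the 3 ARID1B and 3 vector libraries of IMR90 cells. FPKM values per gene were deposited by the authors. The genome build hg19 and the tools DESeq2, TopHat2 2.0.11 and HTSeq 0.5.3p9 appear in the submitters' processing notes without their roles. No column of authors' comparisons was used. The steps of the FPKM values gave whole reads (tolerance 0.002) for 100% of the 10416 genes tested, with library medians of 2283 to 3352.5 reads per gene, so that counting error is small for most genes. Where all reads of a gene share a divisor, the recovered reads are too few by that factor. The divisor of the deposited FPKM matched the sum of distinct exons in GENCODE 29 for 41.6% of 10195 genes and the merged exons for 5.81%, and levels between genes were recomputed per merged exon. GENCODE 29 is on GRCh38 and was used for lengths and overlaps only.

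Genes whose mean reached 1 FPKM were tested with limma 3.58.1 (R 4.3.3) and a variance trend on log2(FPKM + 1), which understates changes of low genes, and p-values were adjusted by Benjamini-Hochberg (threshold 0.05). Single genes were compared by exact permutation tests (scipy 1.17.1). The scripts were tested on simulated data. From each pathway list, the 2 tested genes with the smallest p were named, and other list genes for their level or role. Some genes given by this rule are not reported here. UAP1 and ADAMTS15 were named after their values were seen. The 3 genes nearest to each member were named by the smallest root mean square difference. Members and lists were chosen with earlier results of these data known. Alternatives were other pseudocounts, filters and scalings, no trend, voom on recovered reads, a GC and length correction, a replicate block and each library left out. The FPKM per merged exon length was added after seeing the data. Plots were made with matplotlib 3.10.9.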

Additional observations from a re-analysis of the deposited data

How the results depend on the processing

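Among the 5 members tested, CD44 kept a positive log2 change in all 17 alternatives, between 0.44 and 0.55, with adjusted p-values of 0.0426 to 0.999. TNFAIP6 kept a negative one in its 16 alternatives, between -0.58 and -0.02, as it was not tested at a mean of at least 5 FPKM. Its log2 change was -0.46 with a pseudocount of 0.1 and -0.48 with voom. With each library left out, CD44 ran from 0.46 to 0.55, HAS2 from -0.45 to 0.92, VCAN from -0.17 to 0.40, HYAL2 from -0.29 to -0.01, PTX3 from -0.44 to 0.09, HAPLN3 from -0.27 to 0.11 and ADAMTS5 from 0.68 to 0.88. Over all its alternatives ADAMTS5 ran from 0.58 to 1.5, highest with voom. Members past the threshold ran from 0 to 1, pathway genes from 0 to 3 and all genes from 0 to 324, each highest count without vector replicate 2. The vector libraries left there were replicate 1 and replicate 3, which lay close to a mixture weighted 82.2% on replicate 1, so these counts may be too high. The correction for GC content and length turned HAS2 to -0.08, HYAL2 to 0.05 and HAPLN3 to 0.08, moved VCAN to 0.04 and TNFAIP6 to -0.43, and leaving out both libraries numbered 3 turned HAS2 to -0.14. Over 10195 genes, the log2 change correlated with GC content at a Spearman rho of -0.54. The causes were not tested. Over all genes tested, 3 passed the threshold, and the count was 1 with limma's voom, 0 without a filter and 0 without both libraries numbered 3.

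Same-numbered libraries did not deviate alike from their group means, with correlations of -0.46, -0.43 and -0.17. Vector replicate 2 stood apart and replicate 3 lay close to a mixture, so these values cannot tell whether same-numbered libraries shared a culture or an infection. The fit with the replicate block called 0 genes, and 0 members.

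No change between the groups is shown for HAS2, VCAN, TNFAIP6 or HYAL2, whose intervals include 0, and with 3 libraries a group these intervals leave room for changes in both directions. HAS3 had at most 189 reads in a library, TNFAIP6 at most 419 and HAS1 none. For TNFAIP6, libraries of 1 group differed by more than the counting intervals.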

Other observations

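Some genes of the pathway lay below the level tested or moved within groups. ACAN (aggrecan), another hyaluronan-binding proteoglycan, was at 0.474, 0.246 and 0.394 FPKM in ARID1B replicates 1, 2 and 3, against 1.22, 0.267 and 1.14 FPKM in vector replicates 1, 2 and 3, and with a mean of 0.624 FPKM it was the highest of the 33 pathway genes left out of the test. It overlapped between the groups only through vector replicate 2. ADAMTS15 was at 2.64, 3.83 and 2.98 FPKM in ARID1B replicates 1, 2 and 3, against 7.23, 0.645 and 6.45 FPKM in vector replicates 1, 2 and 3. TLR2, a receptor reported to respond to hyaluronan fragments in mice, was at 0.0884, 0.43 and 0.233 FPKM in ARID1B replicates 1, 2 and 3. In vector replicates 1, 2 and 3 it was at 0.29, 0.11 and 0.316 FPKM. It was lowest in ARID1B replicate 1, as TNFAIP6 was, with 13 reads there and 21 in vector replicate 2. These reads are too few to rank ARID1B replicate 1 below vector replicate 2.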
